A study of Mus musculus with 21 samples.

Results

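Nuclear genes for subunits of respiratory complexes II to V, with the gene for cytochrome c, were followed across myeloid cells of mouse adipose tissue. The list named 39 genes by symbol and used no measured value, though it was chosen with earlier results of these data known. All 39 were found among the 54532 genes of the count table and all passed the filter on low counts: 4 of complex II, 9 of complex III, 1 for cytochrome c, 10 of complex IV and 15 of complex V. RNA-seq was done on cells that were separated by flow cytometry from collagenase-digested adipose tissue of male C57BL/6 mice. Lean animals had received normal diet and obese animals high fat diet (HFD), both for 16 weeks. Each of 7 groups had 3 libraries: MHCIIlow macrophages from lean and obese mice, MHCII+CD11c- macrophages from lean and obese mice, MHCII+CD11c+ macrophages from obese mice alone, and monocyte-derived cells from lean and obese mice. The first 3 types are called MHCII-low, CD11c-negative and CD11c-positive here. No genetic change is named for any group, the fat depot is not named, and nothing says whether the replicates of a group came from separate animals, so the p-values measure the spread between these samples.

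In the inner mitochondrial membrane, complex II (succinate dehydrogenase) takes electrons from succinate, complex III passes them to cytochrome c, and complex IV (cytochrome c oxidase) hands them to oxygen. Complexes III and IV pump protons, and complex V, the ATP synthase, makes ATP as the protons flow back. All subunits of complex II are made from nuclear genes, whereas complexes III, IV and V also need subunits from the mitochondrial genome. In macrophages this chain is known to be adjusted with activation, and succinate and mitochondrial oxidants are known signals in inflammation.

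Library totals ran from 11245851 to 35568948 counts, and the 39 genes together took between 13475 and 74410 counts per library. Single counts of the 39 genes ran from 17, for Uqcr11 in replicate 3 of lean monocyte-derived cells, to 10997, for Atp5b in replicate 1 of obese CD11c-positive macrophages. Levels are given as CPM, the counts of a gene per fixed number of counts in the library, after the trimmed-mean scaling of edgeR (TMM). The labels were checked on marker genes. H2-Ab1, an MHC class II gene, was at 210 to 443 CPM in the 6 MHCII-low libraries and at 1758 to 2789 CPM in the 6 CD11c-negative ones, and Itgax, the CD11c gene, was at 480 to 648 CPM in CD11c-positive and at 14.5 to 98.3 CPM in CD11c-negative libraries. Summed CPM of 6 macrophage markers lay between 4604 and 7461 in the macrophage libraries and between 1021 and 2260 in the monocyte-derived ones, where 6 markers of conventional dendritic cells summed to 313 to 1104 CPM against 15.2 to 113 CPM in macrophages.

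The 39 genes were higher in macrophages of obese mice than in the same macrophages of lean mice. In MHCII-low macrophages their summed level was 1372, 1090.2 and 1201 CPM in the lean libraries and 1881, 1990.2 and 1978 CPM in the obese ones. In CD11c-negative macrophages it was 1213, 1380.5 and 960.1 CPM in lean and 1856, 1886 and 2013 CPM in obese libraries. The lean and obese libraries did not overlap in either macrophage type. The sum was highest in CD11c-positive macrophages, at 2391, 2494 and 2556 CPM. Monocyte-derived cells gave 1664, 1948 and 1155 CPM in lean and 1964, 1659 and 2039.9 CPM in obese libraries, and those libraries overlapped.

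**Figure D1:**
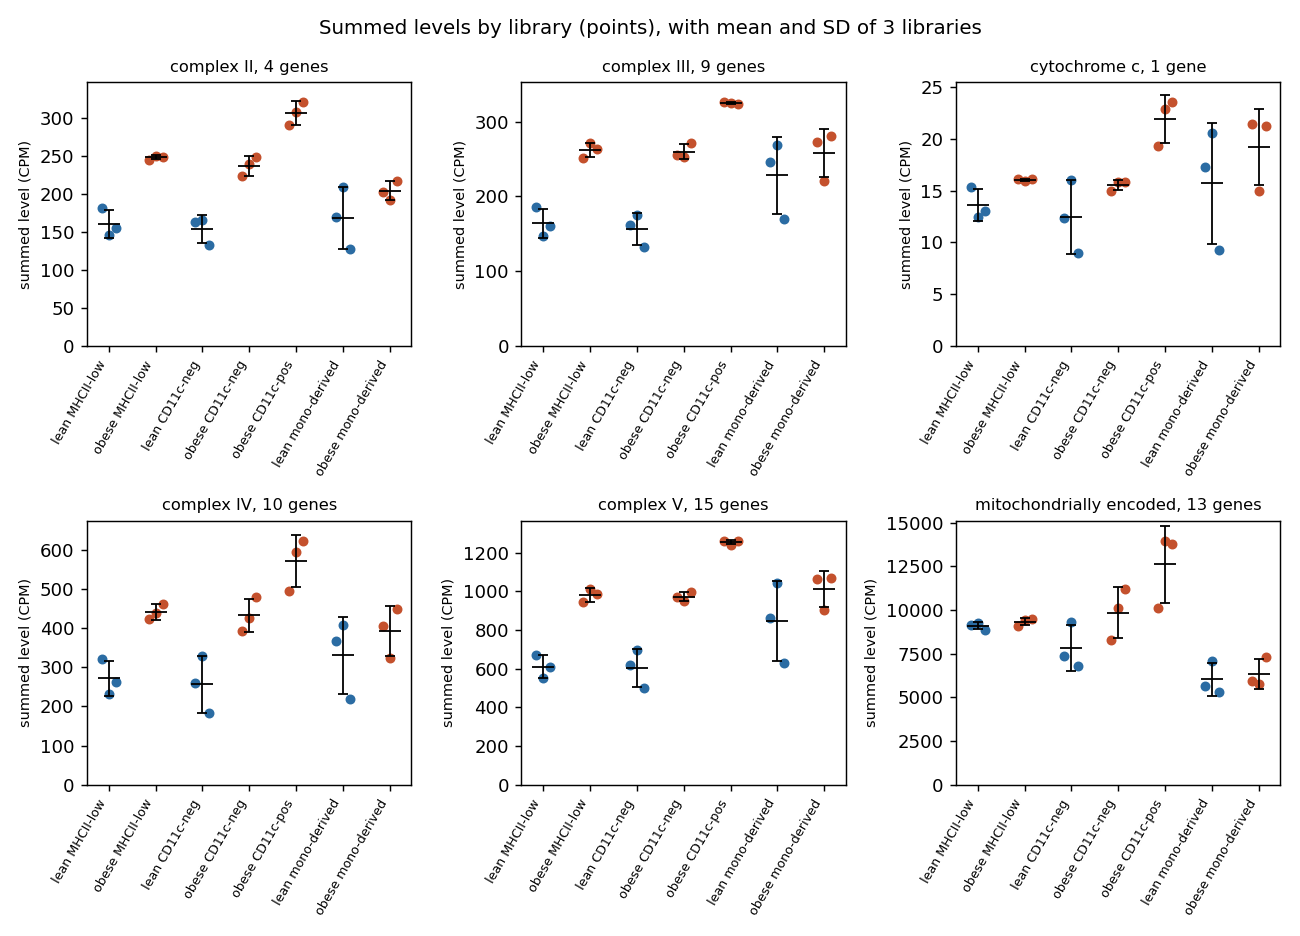
Summed TMM-scaled CPM (vertical axes, each from 0) by population and diet, in separate panels for the 4 genes of complex II, 9 of complex III, cytochrome c, 10 of complex IV, 15 of complex V and the 13 mitochondrially encoded genes; points are libraries (blue lean, red obese) and bars give the mean and SD of 3 libraries. In the panels of complexes II to V the obese MHCII-low and CD11c-negative libraries lie above the lean ones and the monocyte-derived libraries overlap, while the mitochondrially encoded sums of lean and obese libraries overlap in each of the 3 populations that had both.

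Other measures moved with the same split of libraries. Protein-coding genes took 77.0% to 82.1% of counts in lean macrophages and 80.7% to 84.0% in obese ones. As a share of protein-coding counts, the 39 genes rose from between 0.122% and 0.170% in lean macrophage libraries to between 0.220% and 0.243% in obese MHCII-low and CD11c-negative libraries, again without overlap. Genes of olfactory and other sensory receptors, which are normally silent in these cells, summed to 73.0 to 249 CPM in lean macrophages and to 24.9 to 56.1 CPM in obese ones. Lean monocyte-derived libraries held 334 to 1228 CPM of them. The 12 adipocyte markers summed to 43.0 to 67.2 CPM in lean and to 10.8 to 16.7 CPM in obese macrophages, where Ucp1 stayed at or under 1.29 CPM. Fibroblast markers were highest in replicate 2 of every obese population, at 1966 to 2797 CPM. Other markers fell with the diet as well: by edgeR 6 of 8 T and NK cell markers were lower in obese MHCII-low and 3 in obese CD11c-negative macrophages, as were 4 and 2 of 5 mesothelial, 3 and 1 of 5 B cell, 2 and 3 of 6 conventional dendritic cell and 1 and 2 of 5 erythroid markers. T and NK cell markers summed to 5.66 to 15.4 CPM in lean and 2.28 to 5.13 CPM in obese libraries of these 2 types, and dendritic cell markers to 76.7 to 113 CPM and 15.2 to 59.0 CPM. Of 8 fibroblast markers 3 rose in each type. In monocyte-derived cells DESeq2 called 4 of 6 macrophage and 4 of 8 fibroblast markers higher in obese mice. There it called 2 of 6 conventional dendritic cell, 2 of 8 T and NK cell and 3 of 12 adipocyte markers lower. The part of these measures in the results was not tested.

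The first comparison asked how the diet bore on these genes in MHCII-low macrophages. Of the 39 genes, 30 rose at an adjusted p under 0.05 and none fell, against 16.8% of all 22935 tested genes that rose (30.7% in either direction). The median log2 difference was 0.69, a fold of 1.61, against -0.07 over all tested genes. All 39 estimates were above 0, and for 38 of them the 3 obese libraries lay above the 3 lean ones, against 26.0% of all tested genes. Well expressed genes rose more often than others: among the 7675 protein-coding genes with a mean of at least 10 CPM, 35.1% rose and the median was 0.23. For 48.9% of them the obese libraries lay above the lean ones. Bulk counts cannot tell fewer cells of a type from less RNA per cell.

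CD11c-negative macrophages gave a like count. There 33 of the 39 genes rose and none fell, against 16.8% of all tested genes that rose (32.4% in either direction). The median log2 difference was 0.77, a fold of 1.71, against -0.10 over all tested genes and 0.19 over the well expressed protein-coding genes, of which 33.3% rose. For 36 genes the obese libraries lay above the lean ones without overlap, against 25.1% of all tested genes and 45.5% of the well expressed ones. The 28 genes that rose in both macrophage types were 93.3% of the calls in MHCII-low and 84.8% of those in CD11c-negative macrophages, and 4 genes (Uqcrb, Uqcr11, Cycs and Atp5e) were called in neither. With libraries scaled on the well expressed protein-coding genes alone, which keeps 36 of the 39, 24 and 29 of them still rose. That scaling moved the split over well expressed genes from 2691 higher and 662 lower to 1612 and 1620 in MHCII-low, and from 2558 and 1046 to 1873 and 1891 in CD11c-negative macrophages.

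The counts of calls rested on several libraries. In MHCII-low macrophages 15 genes rose without lean replicate 2, 16 without obese replicate 2 and 16 without obese replicate 3, with medians of 0.62, 0.69 and 0.66. In CD11c-negative macrophages 18 rose without lean replicate 3 and 18 without obese replicate 3, with medians of 0.63 and 0.71. All 39 estimates stayed above 0 in each of these fits. Lean CD11c-negative replicate 3 was the lowest of its group for 39 of 39 genes, and lean MHCII-low replicate 2 was the lowest of its group for 32. Without all 4 obese libraries numbered 2, where fibroblast markers were highest, 16 genes rose in MHCII-low and 25 in CD11c-negative macrophages.

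**Figure D2:**
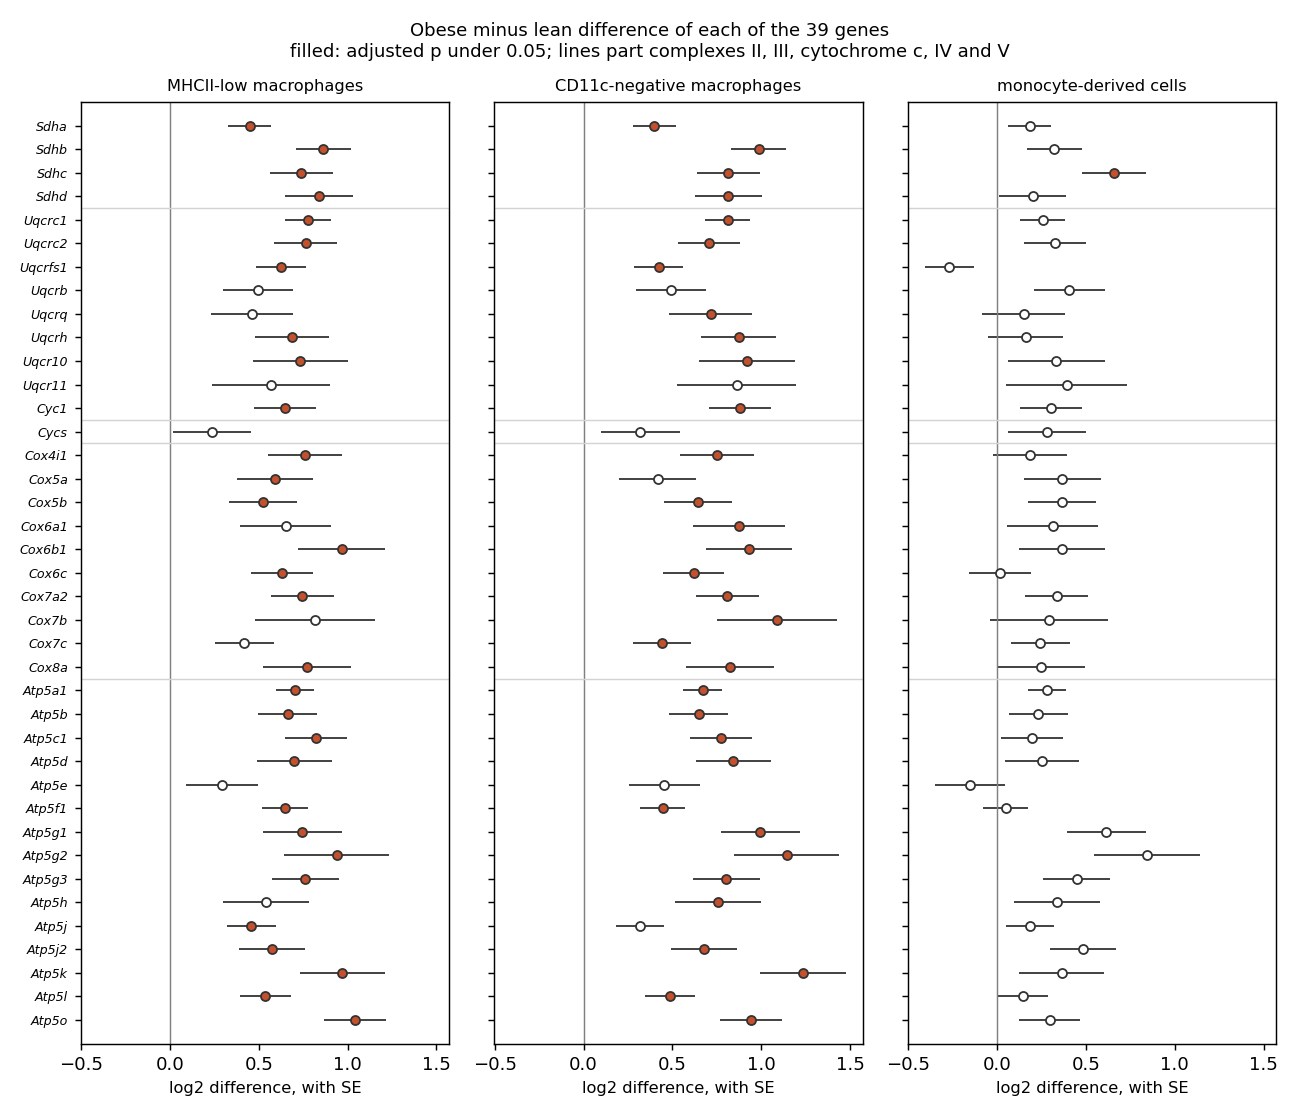
Obese minus lean log2 difference (horizontal axis) with its standard error for each of the 39 genes, ordered by complex and filled where the adjusted p is under 0.05, in both lean-and-obese macrophage types and in monocyte-derived cells. Both macrophage columns lie to the right of 0 for all 39 genes, with 30 and 33 called, while the monocyte-derived column is closer to 0 with 1 called.

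All 4 genes of complex II rose in both macrophage types. Sdhb encodes the iron-sulfur subunit and lies at chr4:140961203-140979193. Its level was 32.6, 23.9 and 25.6 CPM in lean and 45.3, 52.0 and 52.3 CPM in obese MHCII-low macrophages. In CD11c-negative macrophages Sdhb was at 27.7, 28.5 and 22.9 CPM in lean and at 51.6, 50.9 and 54.3 CPM in obese libraries. Every obese library was above every lean one, and the log2 differences were 0.86 (standard error, SE, 0.15, adjusted p = 0.000411) and 0.98 (SE 0.15, adjusted p = 9.5e-05). Sdhc, a membrane anchor subunit at chr1:171127165-171150603, was at 30.5, 21.2 and 23.0 CPM in lean and 43.0, 41.0 and 40.7 CPM in obese MHCII-low macrophages. In CD11c-negative macrophages Sdhc was at 22.3, 23.8 and 15.1 CPM in lean and 36.0, 36.9 and 35.0 CPM in obese libraries. Again no lean library reached an obese one, and the log2 differences were 0.74 (SE 0.18) and 0.81 (SE 0.18). Sdha, the flavoprotein subunit at chr13:74322254-74350280, had the smallest rise of the complex. It went from 95.8, 84.9 and 86.3 CPM to 123, 122 and 120.1 CPM in MHCII-low macrophages, a log2 difference of 0.45 (SE 0.12, adjusted p = 0.0089). In CD11c-negative macrophages it went from 95.8, 93.7 and 79.7 CPM to 108, 120.4 and 126 CPM, a log2 difference of 0.40 (SE 0.12, adjusted p = 0.0157). Sdhd, the other membrane anchor, rose by log2 0.84 and 0.82.

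In complex III, 6 of 9 genes rose in MHCII-low and 7 of 9 in CD11c-negative macrophages. Uqcrfs1, the Rieske iron-sulfur protein at chr13:30540308-30545362, was at 21.4, 21.7 and 19.8 CPM in lean and 35.1, 30.7 and 31.2 CPM in obese MHCII-low macrophages (log2 difference 0.62, SE 0.14, adjusted p = 0.0027). In CD11c-negative macrophages it was at 23.7, 22.9 and 21.8 CPM in lean and 33.4, 27.8 and 30.4 CPM in obese libraries (log2 difference 0.42, SE 0.14, adjusted p = 0.0259). The groups did not overlap in either type, but the call in CD11c-negative macrophages was lost when any 1 of its 6 libraries was left out. Uqcr10, a small subunit at chr11:4701973-4704342, was at 6.94, 4.27 and 6.08 CPM in lean and 8.77, 9.41 and 10.6 CPM in obese MHCII-low macrophages. In CD11c-negative macrophages Uqcr10 was at 4.75, 5.91 and 3.94 CPM in lean and 7.77, 9.76 and 10.1 CPM in obese libraries. The obese libraries were all above the lean ones, with log2 differences of 0.73 (SE 0.27, adjusted p = 0.0427) and 0.92 (SE 0.27, adjusted p = 0.0132). Uqcrc1, a core subunit, rose by log2 0.78 and 0.81. Uqcrb and Uqcr11 were called in neither macrophage type, and Uqcrq rose in CD11c-negative macrophages alone. In MHCII-low macrophages the log2 differences of these 3 small subunits were 0.49, 0.57 and 0.46.

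Cytochrome c itself was among the least moved. Cycs, at chr6:50562563-50566538, was at 15.4, 12.5 and 12.99 CPM in lean and 16.1, 15.9 and 16.1 CPM in obese MHCII-low macrophages. In CD11c-negative macrophages it was at 12.3, 16.0 and 8.92 CPM in lean and 14.9, 15.8 and 15.8 CPM in obese libraries. The 3 obese libraries lay just above the lean ones in MHCII-low macrophages and within their range in CD11c-negative ones. The log2 differences of 0.24 (SE 0.22, adjusted p = 0.430) and 0.32 (SE 0.22, adjusted p = 0.273) did not pass the test. Near-identical copies held 44.3% of the counts summed over Cycs and these copies.

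Complex IV had 7 of 10 genes higher in obese MHCII-low and 9 of 10 higher in obese CD11c-negative macrophages. Cox6b1, a small subunit that faces the intermembrane space, lies at chr7:30616861-30626151. It was at 22.6, 16.4 and 17.8 CPM in lean and 36.1, 37.4 and 37.4 CPM in obese MHCII-low macrophages, a log2 difference of 0.97 (SE 0.24, adjusted p = 0.0062). In CD11c-negative macrophages Cox6b1 was at 21.2, 22.9 and 10.5 CPM in lean and 31.3, 34.5 and 38.6 CPM in obese libraries, a log2 difference of 0.93 (SE 0.24, adjusted p = 0.0065). Lean CD11c-negative replicate 3 was well below its 2 companions, and both groups stayed apart. Cox7c, another small subunit at chr13:86044816-86046904, was at 29.2, 24.2 and 23.8 CPM in lean and 32.8, 35.0 and 35.4 CPM in obese MHCII-low macrophages. In CD11c-negative macrophages Cox7c was at 25.5, 31.6 and 20.3 CPM in lean and 31.6, 35.9 and 37.6 CPM in obese libraries. The groups were close together, and the log2 differences were 0.42 (SE 0.17, adjusted p = 0.0591) and 0.44 (SE 0.17, adjusted p = 0.0462). In MHCII-low macrophages Cox6a1 and Cox7b also missed the threshold, and in CD11c-negative macrophages Cox5a, which sits on the matrix side, did.

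In complex V, 13 of 15 genes rose in each macrophage type. Atp5o, a subunit of the stalk that joins the catalytic head to the membrane part, had the largest difference of all 39 genes in MHCII-low macrophages. It lies at chr16:91925214-91931687 and was at 10.2, 8.45 and 8.93 CPM in lean and 17.2, 19.1 and 20.5 CPM in obese MHCII-low libraries. The obese values were about log2 1.04 higher (SE 0.17, adjusted p = 0.00023). In CD11c-negative macrophages Atp5o was at 10.4, 11.2 and 7.96 CPM in lean and 17.7, 19.0 and 20.3 CPM in obese libraries, a log2 difference of 0.94. The largest in CD11c-negative macrophages was Atp5k, a small membrane subunit, at 4.39, 5.18 and 2.47 CPM in lean and 8.30, 10.4 and 9.75 CPM in obese libraries (log2 1.23, SE 0.24, adjusted p = 0.00075). Atp5a1, the alpha subunit of the catalytic head, rose by log2 0.70 (SE 0.11) in MHCII-low and 0.67 in CD11c-negative macrophages. Atp5e, the epsilon subunit at chr2:174461072-174464105, was at 8.13, 6.26 and 6.21 CPM in lean and 8.10, 7.85 and 9.32 CPM in obese MHCII-low macrophages. The 2 groups overlapped, and the log2 difference was 0.29 (SE 0.20, adjusted p = 0.275). In CD11c-negative macrophages Atp5e was at 7.198, 8.498 and 4.44 CPM in lean and 7.49, 9.96 and 10.2 CPM in obese libraries, again with overlap (log2 0.46, SE 0.20, adjusted p = 0.0878). Atp5h in MHCII-low and Atp5j in CD11c-negative macrophages were the other 2 genes of the complex that missed the threshold. Exons of Atp5j share 12.7% of their bases with Gabpa on the other strand, and exons of Atp5o overlap 2 antisense genes, so reads of these pairs may be mixed. The same holds for genes of other complexes, among them Uqcrc2 with Pdzd9 (19.7%) and Cox5a with Gm26631 (12.8%). The annotation also holds a second entry named Atp5o on the same strand, which shares 12.3% of the exon bases of the entry followed here. Only the entry with the higher total of counts was followed, and reads in the shared bases may be divided or lost.

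**Figure D3:**
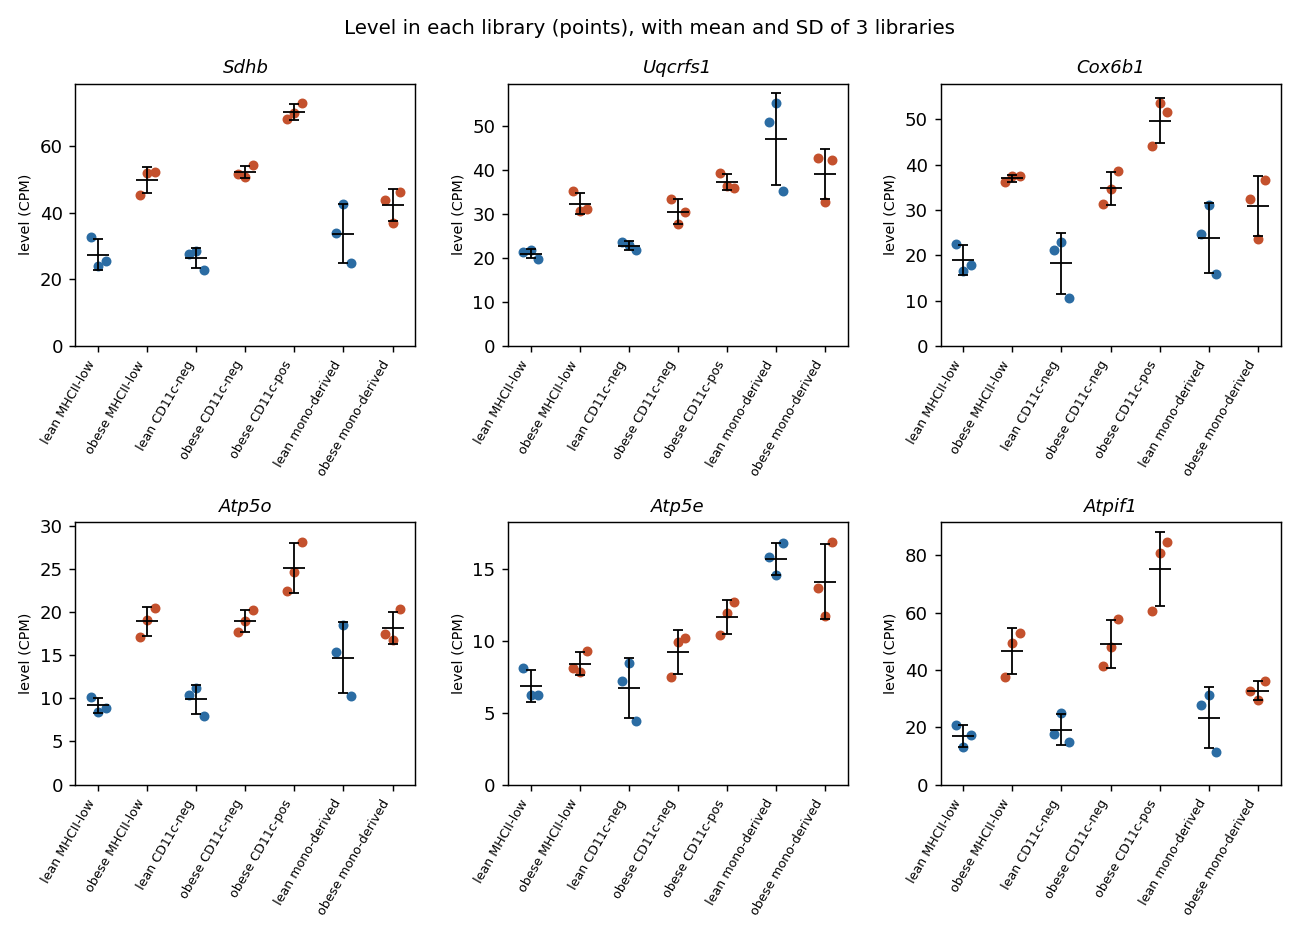
TMM-scaled CPM (vertical axes, each from 0) of Sdhb, Uqcrfs1, Cox6b1, Atp5o, Atp5e and the ATP synthase inhibitor Atpif1 in each of the 21 libraries, by population and diet. Sdhb, Cox6b1 and Atp5o are higher in every obese MHCII-low and CD11c-negative library than in the lean ones, while Uqcrfs1 and Atp5e have their highest group means in lean monocyte-derived cells; bars give the mean and SD of 3 libraries.

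The c subunit of the ATP synthase, which forms the rotating ring, is made from 3 genes whose mature proteins are known to be the same while their import signals differ. Their coding sequences show how far reads can tell them apart. Below are the last 60 bases before the stop codon in the reference annotation (GENCODE M21 on GRCm38), with capitals at the positions where the 3 genes are not all alike; for the pseudogenes Gm10175 and Gm10039 capitals mark bases that differ from Atp5g2 and Atp5g1.
Atp5g1: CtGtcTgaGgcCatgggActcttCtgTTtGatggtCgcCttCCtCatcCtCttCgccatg
Atp5g2: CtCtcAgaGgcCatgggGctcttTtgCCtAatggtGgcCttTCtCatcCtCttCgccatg
Atp5g3: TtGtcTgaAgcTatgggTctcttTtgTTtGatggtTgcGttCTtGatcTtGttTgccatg
Gm10175: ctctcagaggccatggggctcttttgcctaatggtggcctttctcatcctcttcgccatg
Gm10039: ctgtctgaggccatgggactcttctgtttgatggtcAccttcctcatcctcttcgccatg
Over the last 225 coding bases Atp5g1 and Atp5g2 were 84.9% identical, Atp5g1 and Atp5g3 80.0%, and Atp5g2 and Atp5g3 78.7%, so the 3 genes can be told apart by reads of ordinary length. Gm10175, at chr7:23946646-23947290, showed no difference from Atp5g2 in the printed stretch and held 12904 counts over all libraries against 12539 for Atp5g2. The sources used here do not say how such reads were counted, which leaves the level of Atp5g2 uncertain.

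All 3 genes rose in obese macrophages. Atp5g1, at chr11:96068852-96075670, was at 17.6, 12.8 and 19.1 CPM in lean and 26.5, 28.5 and 28.0 CPM in obese MHCII-low macrophages (log2 0.75, SE 0.22, adjusted p = 0.0165). Atp5g2, at chr15:102662864-102672352, was at 16.1, 10.1 and 13.2 CPM in lean and 21.7, 26.0 and 28.1 CPM in obese ones (log2 0.94, SE 0.29, adjusted p = 0.0227). Atp5g3, at chr2:73908447-73911326, was at 25.7, 17.5 and 22.5 CPM in lean and 36.7, 39.1 and 35.7 CPM in obese ones (log2 0.76, SE 0.19, adjusted p = 0.0055). For each gene all obese libraries were above all lean ones. In CD11c-negative macrophages Atp5g1 was at 14.4, 21.01 and 12.6 CPM in lean and 27.1, 32.8 and 36.0 CPM in obese libraries, a log2 difference of 0.99. Atp5g2 was at 13.5, 17.5 and 8.01 CPM in lean and 25.6, 27.5 and 33.3 CPM in obese libraries, a log2 difference of 1.14, and Atp5g3 at 22.6, 25.2 and 14.8 CPM and 35.7, 36.9 and 36.9 CPM, a log2 difference of 0.80. The groups stayed apart for all 3 genes there as well. Reads were also summed with those of near-identical copies. Copies held 52.1% of the summed counts for Atp5g2, 44.3% for Cycs, 36.0% for Cox7c, 26.5% for Atp5l and 12.1% for Atp5g1. With the copies added, 30 and 34 genes rose in the 2 macrophage types, Atp5g1 in MHCII-low macrophages was at log2 0.45 (adjusted p = 0.0739), and Cox7c there was at log2 0.45 (adjusted p = 0.0464). In CD11c-negative macrophages Uqcr11 was then called higher, at log2 0.88 (adjusted p = 0.0202). Cycs was then at log2 0.36 in MHCII-low and 0.39 in CD11c-negative macrophages and was called in neither.

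In monocyte-derived cells the diet difference of the 39 genes was smaller and rarely passed the test. Sdhc alone rose, with 19.4, 22.5 and 12.6 CPM in lean and 27.3, 27.1 and 32.2 CPM in obese libraries (log2 0.66, SE 0.18, adjusted p = 0.0186). This was 1 of 39 genes, against 7.44% of all tested genes that rose (17.2% in either direction). The median log2 difference was 0.29, a fold of 1.22, against -0.05 over all tested genes and 0.18 over well expressed protein-coding genes. With libraries scaled on the well expressed protein-coding genes alone the median was 0.09 over the 36 genes kept. The groups were apart for only 2 of the 39 genes, against 13.2% of all tested genes and 26.8% of the well expressed protein-coding ones. Lean replicate 3, the library with the fewest counts and the most sensory receptor reads, was the lowest of its group for 37 genes, and obese replicate 2 was the lowest of its group for 38. Without lean replicate 3 no gene rose and 1 fell, without lean replicate 2 18 rose, and without obese replicate 2 13 rose.

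Cycs was at 17.3, 20.6 and 9.26 CPM in lean and 21.4, 15.005 and 21.2 CPM in obese monocyte-derived cells, and Cox6b1 was at 24.7, 31.1 and 15.8 CPM and 32.4, 23.5 and 36.5 CPM. Both overlapped widely between the diets. The c subunit genes Atp5g1, Atp5g2 and Atp5g3 had log2 differences of 0.61 (adjusted p = 0.0615), 0.84 (adjusted p = 0.0575) and 0.45 (adjusted p = 0.104). Uqcrfs1 and Atp5e were the 2 genes with estimates below 0. Uqcrfs1 was at 50.9, 55.3 and 35.3 CPM in lean and 42.7, 32.6 and 42.2 CPM in obese libraries, a log2 difference of -0.27 (SE 0.14, adjusted p = 0.178). Atp5e was at 15.8, 14.6 and 16.8 CPM in lean and 13.7, 11.8 and 16.9 CPM in obese libraries, a log2 difference of -0.15 (SE 0.20, adjusted p = 0.619). Neither gene passed the test, and both signs turned without obese replicate 2, to 0.03 and 0.16. Scaled on the well expressed protein-coding genes alone, Uqcrfs1 was called lower, at log2 -0.46 (adjusted p = 0.00856). Sdha was at 92.0, 111 and 74.7 CPM in lean and 101, 104 and 109.9 CPM in obese libraries, and its log2 difference of 0.18 came to -0.0060 when libraries were scaled on well expressed protein-coding genes, where 9 of 36 estimates were below 0.

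Whether the diet difference itself differed between populations was tested directly. Between CD11c-negative and MHCII-low macrophages edgeR called none of the 39 genes, as it called 0 of all 22935 tested genes (0%); DESeq2 called none of the 39, and none had an unadjusted p under 0.05. Between monocyte-derived cells and MHCII-low macrophages 1 of the 39 differed, Uqcrfs1, whose diet difference was lower in monocyte-derived cells by log2 -0.89 (SE 0.20, adjusted p = 0.012), against 4.33% of all tested genes in either direction and 2.43% lower. Of the 39 estimates, 38 were below 0, with a median of -0.41 against -0.05 over all tested genes, and 9 had an unadjusted p under 0.05. Against CD11c-negative macrophages Uqcrfs1 was again the 1 gene called, at log2 -0.69 (SE 0.20, adjusted p = 0.0397), against 6.36% of all tested genes in either direction and 2.51% lower. All 39 estimates were below 0 there, with a median of -0.48, and 13 had an unadjusted p under 0.05. The share of all tested genes at that unadjusted threshold was not counted in either comparison. These comparisons share the monocyte-derived libraries. Leaving out any 1 of the obese libraries compared left no gene called in either comparison. The call was also lost against MHCII-low macrophages without lean MHCII-low replicate 1 or 3, and against CD11c-negative macrophages without any 1 lean CD11c-negative library or without lean monocyte-derived replicate 1 or 2. Leaving out lean monocyte-derived replicate 3 gave 11 genes in each, and the share of all tested genes in that fit is not given here.

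Using the number in each sample's description (which for some samples is not that in its title) as replicate block moved both counts. With it the diet difference of 6 genes (Uqcrfs1, Cox4i1, Cox6b1, Atp5c1, Atp5f1 and Atp5o) was lower in monocyte-derived cells than in MHCII-low macrophages, against 3.64% of all tested genes, and that of 10 genes was lower than in CD11c-negative macrophages, against 5.11%. Uqcrfs1, Cox4i1, Atp5c1 and Atp5o were called in both. The numbers were not shown to pair MHCII-low with monocyte-derived libraries. Deviations of equal-numbered libraries correlated at only 0.0829 to 0.408 between the obese ones and at 0.0527 to 0.17 between the lean ones. Between obese CD11c-negative and monocyte-derived libraries equal numbers gave 0.3 to 0.595, against at most 0.0409 for unequal ones. Between the lean ones they gave 0.0885 to 0.342, against at most 0.0638. With the title number as block 1 gene was called in each comparison.

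**Figure D4:**
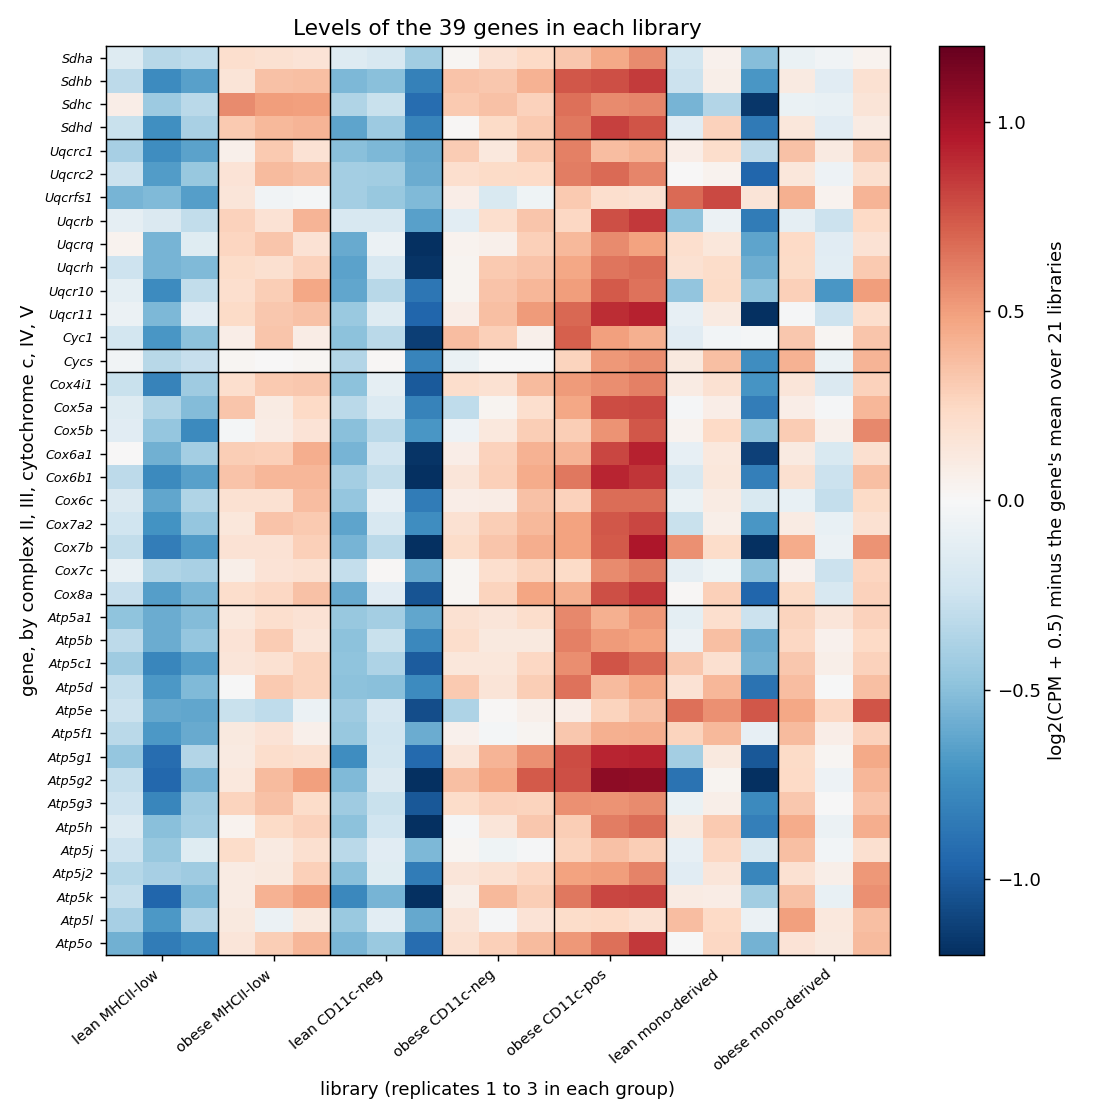
Each of the 39 genes (rows, by complex) in each of the 21 libraries (columns, by group), coloured by log2(CPM + 0.5) minus the mean of that gene over all libraries. Lean macrophage columns are mostly below the mean and obese CD11c-positive columns mostly above it, and the columns of lean CD11c-negative replicate 3 and lean monocyte-derived replicate 3 are the lowest of their groups for 39 and 37 genes.

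Among obese macrophages the CD11c-positive cells, a population sorted from obese tissue only, had the highest levels. The group mean was highest there for 36 of 39 genes; the exceptions were Uqcrfs1 and Atp5e, highest in lean monocyte-derived cells, and Atp5l, highest in obese monocyte-derived cells. Sdhb was at 68.3, 69.8 and 72.9 CPM in CD11c-positive macrophages, and Cox6b1 was at 44.0, 53.5 and 51.5 CPM. Atp5g1 was at 42.5, 46.6 and 47.0 CPM, above all obese MHCII-low and CD11c-negative libraries. The same was so for Sdhb and Cox6b1. Even Cycs, at 19.3, 22.9 and 23.6 CPM, lay above every other macrophage library.

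Against CD11c-negative macrophages all 39 estimates were above 0, with a median of log2 0.38 (a fold of 1.30) against -0.03 over all tested genes. The libraries were apart for 33 genes, against 18.5% of all tested genes and 32.0% of the well expressed protein-coding ones. In edgeR without a replicate term none of the 39 passed the test, against 1.38% of all tested genes that rose (3.49% in either direction). DESeq2 called 7. In edgeR 19 had an unadjusted p under 0.05, and the share of all tested genes at that threshold was not counted. Obese libraries with the same number in the labels varied together, and with that number as a block 14 genes rose, against 4.86% of all tested genes. With the block they included Cox5a (log2 0.72, adjusted p = 0.00539), Atp5c1, the gamma subunit of the ATP synthase (log2 0.49, adjusted p = 0.00453), Sdhd (log2 0.56, adjusted p = 0.0132), Atp5g1 (log2 0.51, adjusted p = 0.0137) and Cycs (log2 0.49, adjusted p = 0.0382). Sdha was the smallest of the 14, at log2 0.31 (adjusted p = 0.0434). In obese libraries the title number is equal to the number used. As a block shared by lean and obese libraries, the title number gave no call among the 39.

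Against MHCII-low macrophages 3 genes were higher in CD11c-positive ones: Sdhb (log2 0.50, adjusted p = 0.0317), Atp5a1 (log2 0.34, adjusted p = 0.035) and Atp5g1 (log2 0.71, adjusted p = 0.0329). Over all tested genes 5.89% were higher (14.3% in either direction). The median over the 39 was log2 0.37, a fold of 1.29, against -0.01 over all tested genes. The libraries were apart for 36 genes, against 21.7% of all tested genes and 37.3% of the well expressed protein-coding ones. With the replicate block 16 genes were higher, against 10.5% of all tested genes, Atp5g2 (log2 0.65, adjusted p = 0.00714) and Atp5o (log2 0.40, adjusted p = 0.0134) among them. With the title number as a block shared by lean and obese libraries 3 were higher. Leaving out any 1 of the 6 libraries left no gene called without the block. Obese CD11c-negative and MHCII-low macrophages did not differ by the test in any of the 39 genes, against 3.05% of all tested genes. Their median was log2 -0.02, DESeq2 and the blocked fit called none, and none had an unadjusted p under 0.05. The lean pair gave the same counts of 0, with a median of log2 -0.06 and 1.30% of all tested genes called.

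**Figure D5:**
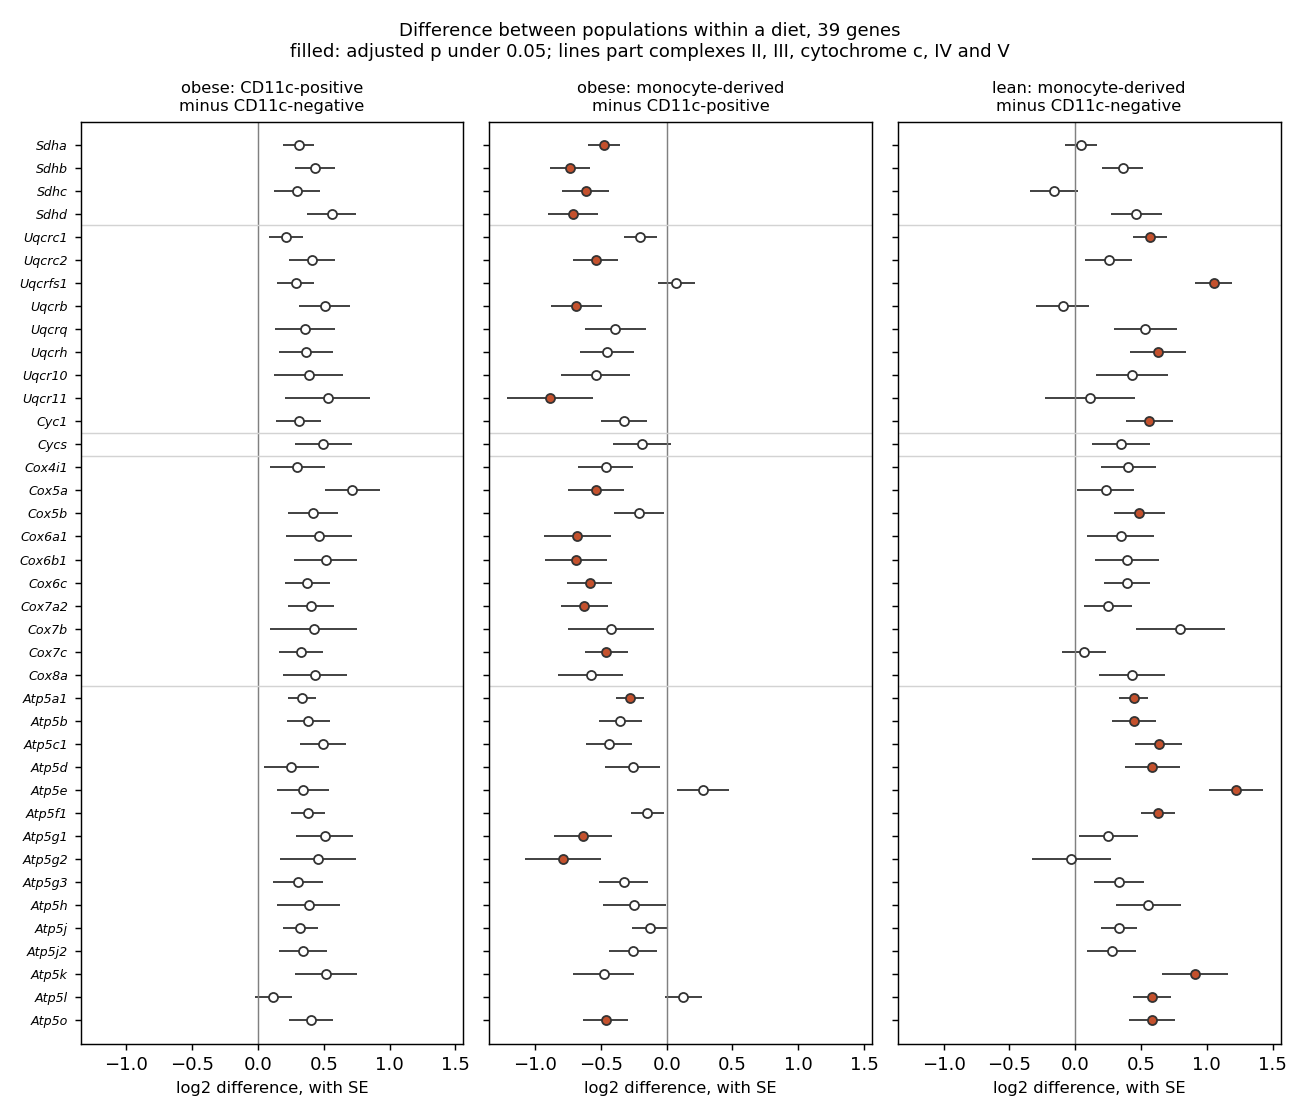
Log2 difference (horizontal axis) with its standard error for the 39 genes, filled where the adjusted p is under 0.05, in obese CD11c-positive minus CD11c-negative macrophages, obese monocyte-derived cells minus CD11c-positive macrophages, and lean monocyte-derived cells minus CD11c-negative macrophages. All 39 genes lie above 0 in the first, 36 lie below 0 in the second with 17 called, and 36 lie above 0 in the third with 14 called. Values are from the fit without a replicate block.

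Obese monocyte-derived cells had lower levels than CD11c-positive macrophages in 17 of the 39 genes and higher levels in none, against 19.4% of all tested genes that were lower (38.7% in either direction). The median was log2 -0.46, a fold of 0.728, against 0.09 over all tested genes and -0.18 over well expressed protein-coding genes, of which 35.5% were lower. The libraries were apart for 27 genes, against 28.1% of all tested genes and 48.4% of the well expressed protein-coding ones. By complex the lower genes were 4 of 4 in complex II, 3 of 9 in complex III, 6 of 10 in complex IV and 4 of 15 in complex V, without Cycs. Sdhb was at 43.7, 37.0 and 46.2 CPM in obese monocyte-derived cells, all below the CD11c-positive libraries. Uqcrfs1, Atp5e and Atp5l had estimates of log2 0.07, 0.27 and 0.13, and none of these passed the test. With the replicate block 27 genes were lower, against 22.7% of all tested genes. Leaving out CD11c-positive replicate 2 or 3, or monocyte-derived replicate 1 or 2, brought the 17 to 5, 4, 8 and 4.

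In lean mice monocyte-derived cells were compared with CD11c-negative macrophages, a different partner from that in the obese comparison. They were higher in 14 of 39 genes and lower in none, against 23.6% of all tested genes that were higher (43.7% in either direction), with a median of log2 0.43, a fold of 1.35, against 0.14 over all tested genes. Atp5e (log2 1.22), Uqcrfs1 (log2 1.05, adjusted p = 4e-06) and Atp5k (log2 0.91) had the largest differences. For Uqcrfs1 the lean monocyte-derived libraries, at 35.3 to 55.3 CPM, were all above the lean CD11c-negative ones, at 21.8 to 23.7 CPM, and for Atp5e the ranges were 14.6 to 16.8 CPM and 4.44 to 8.498 CPM. The libraries were apart for only 8 genes, against 22.0% of all tested genes and 20.5% of the well expressed protein-coding ones. The count of 14 became 7 without lean CD11c-negative replicate 3, 9 without replicate 2 of either group or monocyte-derived replicate 1, and 27 without monocyte-derived replicate 3. With the description number as replicate block it was 25, against 25.1% of all tested genes that were higher, while deviations of equal-numbered libraries correlated at 0.0885 to 0.342. No test of obese monocyte-derived cells against obese CD11c-negative macrophages was made, and their summed levels, given above, overlapped.

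Levels of different genes were compared only per length, as CPM per kilobase of annotated exon. On that scale the mean over all libraries was highest for Cox6a1 at 86.7, Cox8a at 77.4 and Atp5a1 at 75.8, and lowest for Atp5l at 4.05. The exon length counts every annotated isoform, so a gene with rare long isoforms comes out low on this scale.

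Of the subunits made from the mitochondrial genome 12 of 13 were tested. For the diet, none was called in MHCII-low macrophages by edgeR or DESeq2, and none had an unadjusted p under 0.05. Their median was log2 0.05 there, beside 0.69 for the 39 nuclear genes, in libraries whose mitochondrial messages summed to 8879 to 9285 CPM in lean and 9100 to 9472 CPM in obese mice. In CD11c-negative macrophages mt-Co2, a catalytic core subunit of complex IV, rose by log2 0.33 (adjusted p = 0.0399) and the other 11 were not called, with a median of log2 0.35. In monocyte-derived cells mt-Nd3, of complex I, fell by 0.81 on the log2 scale. No test of the nuclear against the mitochondrial subunits was made. Between obese monocyte-derived cells and CD11c-positive macrophages the mitochondrial messages differed widely: 11 of 12 were lower, among them mt-Co1 (log2 -0.85) and mt-Atp6 (log2 -1.44), and the sums were 5779 to 7319 CPM against 10092 to 13979.5 CPM.

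Nuclear subunits of complex I, the entry point for electrons from NADH, gave counts like those of the 39 genes: 27 of 36 rose in MHCII-low and 31 of 36 in CD11c-negative macrophages, with medians of log2 0.68 and 0.75. In monocyte-derived cells 2 rose and 1 fell. Assembly factors of complexes II to V, which help build the complexes without staying in them, were mixed. Of 30 tested, 7 rose and 1 fell in MHCII-low, 10 rose and 1 fell in CD11c-negative macrophages, and 2 rose in monocyte-derived cells. Sdhaf2, which is needed to attach the flavin to Sdha, rose by log2 0.62 and 0.75 in the 2 macrophage types. Uqcc3, an assembly factor of complex III, rose by log2 0.95 and 1.38. Cox18, which helps insert mt-Co2 into the membrane, fell by 0.70 and 0.77 on the log2 scale.

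Among 8 accessory and inhibitory proteins, 3 rose in MHCII-low macrophages, 3 rose and 1 fell in CD11c-negative macrophages, and 1 rose in monocyte-derived cells. Atpif1, the inhibitor that blocks the ATP synthase from running backwards, lies at chr4:132530555-132533659. It was at 20.9, 13.1 and 17.2 CPM in lean and 37.7, 49.4 and 53.0 CPM in obese MHCII-low macrophages, a log2 difference of 1.45 (SE 0.28, adjusted p = 0.00102). In CD11c-negative macrophages Atpif1 was at 17.5, 25.1 and 14.9 CPM in lean and 41.3, 48.1 and 57.8 CPM in obese libraries, a log2 difference of 1.35 (SE 0.28, adjusted p = 0.00133). Both estimates were above those of all 39 subunit genes in the same comparison. CD11c-positive macrophages had 60.6, 80.8 and 84.8 CPM of Atpif1, the highest 3 values of the 21 libraries, and obese monocyte-derived cells had 32.7, 29.6 and 36.1 CPM (log2 -1.1997 against CD11c-positive, adjusted p = 0.00197). Ndufa4, a protein of complex IV despite its name, rose by log2 0.65 and 0.86 in the 2 macrophage types.

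Of 16 genes of the TCA cycle and pyruvate dehydrogenase, which feed electrons to the chain, 10 rose in each macrophage type and 1 in monocyte-derived cells. Idh3a, a subunit of the NAD-dependent isocitrate dehydrogenase, rose by log2 0.83 and 0.82. Of 11 carriers and outer membrane proteins, 9 rose in MHCII-low, 10 in CD11c-negative and 4 in monocyte-derived cells. Vdac1, the channel of the outer membrane, went from 38.5, 26.8 and 29.6 CPM in lean to 59.2, 73.2 and 73.7 CPM in obese MHCII-low macrophages, a log2 difference of 1.12. Ucp2, an inner membrane carrier of the uncoupling protein family, rose by log2 1.11 and 1.19, and Slc25a4, an ADP/ATP carrier, by log2 0.83 and 0.80. In monocyte-derived cells Ucp2 (log2 0.68) and Slc25a4 (log2 0.49) rose as well.

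Regulators of mitochondrial biogenesis were split. Of 12 tested, 3 rose and 1 fell in each macrophage type. Polrmt, the mitochondrial RNA polymerase, rose by log2 0.77 and 0.81, Tfb2m, its transcription factor, by log2 0.64 and 0.52, and Esrra, a nuclear receptor of energy metabolism genes, by log2 0.54 and 0.46. Pprc1, a coactivator of the PGC-1 family, fell by 0.50 and 0.61 on the log2 scale. Nrf1 and Gabpa, factors known to bind promoters of respiratory chain genes, had log2 differences of -0.16 and 0.17 in MHCII-low and of -0.01 and 0.03 in CD11c-negative macrophages, and none of these passed the test.

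Lists outside mitochondria moved in the same comparisons. Of 30 cytosolic ribosomal protein genes, 20 and 23 rose in the 2 macrophage types and none in monocyte-derived cells, with medians of log2 0.50, 0.57 and 0.04. Of 18 cell cycle genes, 17, 16 and 3 rose, with medians of log2 1.52, 1.16 and 0.18. Between obese monocyte-derived cells and CD11c-positive macrophages all 18 cell cycle genes were lower, while ribosomal protein genes had 1 higher, none lower and a median of log2 0.06. The part of cell division in the results on the 39 genes was not tested.

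Promoters of the 39 genes were searched because the genes moved together, for the letters of the NRF1 motif, GCGCA and GCGC parted by any 1 base, and for the letters CCGGAAG of the ETS family, to which Gabpa belongs. Windows from 250 bases before to 50 bases after the start of each gene came from RefSeq (GRCm38.p6), were searched on both strands, and were at hand for 31 of the 39. NRF1 letters were in 10 of the 31 (32.3%) and in 5.19% of the windows of all 27025 genes. ETS letters were in 12 of the 31 (38.7%) and in 9.93% of all windows. The windows of all genes were not limited to well expressed genes, and the share over those was not counted. Sdhd, Cox6a1, Atp5h and Atp5k held both sets of letters within their windows. The stretches below were cut to bases before the start and outside annotated exons, and none of them holds both sets. They show the letters in genes that rose (Sdha, Sdhd, Uqcrh) and in Atp5e, called in neither macrophage type. All 4 lie on the minus strand and are written 5′ to 3′, with capitals at the match (an ETS match on the other strand reads CTTCCGG).
Sdha, chr13:74350281-74350308, NRF1 letters: ggaggggcgtgttGCGCAGGCGCagaat
Sdhd, chr9:50603850-50603909, ETS letters: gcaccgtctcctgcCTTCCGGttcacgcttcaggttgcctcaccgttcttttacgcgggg
Uqcrh, chr4:116075072-116075171, ETS letters: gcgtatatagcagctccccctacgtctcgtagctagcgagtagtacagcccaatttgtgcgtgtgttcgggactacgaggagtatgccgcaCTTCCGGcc
Atp5e, chr2:174464150-174464249, ETS letters: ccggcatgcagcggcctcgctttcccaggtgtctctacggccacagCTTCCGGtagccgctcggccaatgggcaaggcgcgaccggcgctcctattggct
Cox6a1, which carried NRF1 letters at 2 places in the following stretch, rose in CD11c-negative and missed the threshold in MHCII-low macrophages.
Cox6a1, chr5:115349030-115349129, NRF1 letters: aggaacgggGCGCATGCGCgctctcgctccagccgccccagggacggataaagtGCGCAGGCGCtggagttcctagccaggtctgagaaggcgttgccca
A match is a run of letters in the reference and was not measured as a bound site. Genes with NRF1 letters were called higher in 8 of 10 cases in MHCII-low and 10 of 10 in CD11c-negative macrophages, against 16 of 21 and 16 of 21 without them, with medians of log2 0.80 and 0.81 against 0.65 and 0.68. Genes with ETS letters were called in 8 of 12 and 9 of 12 cases, against 16 of 19 and 17 of 19 without them, with medians of log2 0.67 and 0.84 against 0.70 and 0.77. These are counts with no test, and Sdhd, Cox6a1, Atp5h and Atp5k stand among the genes with letters in both splits.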

How the data were processed

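The deposited table holds read counts per gene for 21 libraries. The authors made these counts on GRCm38; the submitters' processing notes list STAR 2.6.0a, Trim Galore 0.4.5, bcl2fastq, and Subread 1.4.6-p5 with featureCounts. The strand setting and the handling of reads that map to several places are not given in the sources used here, and both bear on genes with antisense neighbours or near-identical copies. RNA was amplified from sorted cells with a NuGen Ovation kit, per the labels. Of the 54532 gene IDs, 54409 matched GENCODE M21 with or without their version.

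Counts were fitted with edgeR 4.0.16 in R 4.3.3 (limma 3.58.1). The filter filterByExpr kept 22935 genes, libraries were scaled by TMM, and the quasi-likelihood test with robust settings used 1 mean for each of 7 groups, with 14 residual degrees of freedom. Tests were 2-sided with Benjamini-Hochberg adjustment over all tested genes, and a gene is called higher or lower at an adjusted p under 0.05. DESeq2 1.42.0 was an alternative. Scripts were tested on simulated data. The standard error is the one that the F statistic implies. Counting error covers sampling of reads only, since PCR copies of a molecule are counted again. Near-identical copies were found with blastn 2.17.0 (at least 90% identity over at least 50% of the coding sequence).

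Full values were given for the genes with the highest and lowest log2 difference, averaged over the 3 diet comparisons, in each complex, for cytochrome c and for the c subunit genes. Up to 4 called genes of each other list, those with the lowest adjusted p and at least 5 CPM in the higher group, could be named. Sdhb, Atp5o, Atp5k and other genes with values beyond this rule were chosen after their values were seen. The 39 genes, the lists and the tests were chosen with earlier results of these data known. Replicate numbers come from the labels, of which the description and the title give different ones for some samples. Deviations from the group mean of obese libraries with the same description number correlated at 0.638 to 0.771 between CD11c-negative and CD11c-positive, 0.26 to 0.52 between CD11c-positive and MHCII-low, and 0.383 to 0.486 between CD11c-positive and monocyte-derived libraries. That number was therefore used as a block in a second fit for those 3 comparisons, beside the main fit, which had no block. Between MHCII-low and monocyte-derived libraries equal numbers gave 0.0829 to 0.408 and unequal ones up to 0.144, and not every pair was above 0.1; there the block is an alternative only.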

Additional observations from a re-analysis of the deposited data

Results flagged for a closer look

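Uqcrfs1, the Rieske iron-sulfur protein of complex III, was flagged as the 1 of the 39 genes whose diet difference was called as different between populations. In monocyte-derived cells it was lower than in MHCII-low macrophages by log2 -0.895 (SE 0.198, adjusted p = 0.012, edgeR). It was also lower than in CD11c-negative macrophages, by log2 -0.692 (SE 0.197, adjusted p = 0.0397). Over all tested genes 4.33% were called against MHCII-low macrophages (2.43% lower) and 6.36% against CD11c-negative ones (2.51% lower). The 3 obese libraries were above the 3 lean ones in both macrophage types, and the libraries overlapped in monocyte-derived cells. Lean monocyte-derived libraries had 35.3 to 55.3 CPM of Uqcrfs1, with the lowest value in replicate 3, the library with the most sensory receptor reads. The part of that library in the result was not tested beyond leaving it out, after which 11 genes were called in each comparison. The share of all tested genes in that fit is not given here. Leaving out any 1 of the obese libraries compared left no gene called in either comparison.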

How the results depend on the processing

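Alternatives changed counts of calls more often than signs, and the causes were not tested. Unless a share is printed beside them, counts here stand without the share of all tested genes called in the same fit. That share moves between fits as well. Those leaving out the 4 obese libraries numbered 2 or adding near-identical copies were chosen after seeing the data. Without single libraries the 39 genes gave 15 to 25 calls for diet in MHCII-low, 18 to 32 in CD11c-negative and 1 to 18 in monocyte-derived cells (1 lower and 0 higher without lean replicate 3), 0 to 11 in both comparisons of diet effects with monocyte-derived cells, 0 in CD11c-positive against either obese macrophage, 4 to 14 in obese monocyte-derived against CD11c-positive cells and 7 to 27 in lean monocyte-derived against CD11c-negative cells. The other comparisons gave 0 throughout. Without the 4 obese libraries numbered 2 there were 16 calls for diet in MHCII-low macrophages, 0 in both comparisons of diet effects with monocyte-derived cells, 0 in CD11c-positive against MHCII-low and 2 in obese monocyte-derived against CD11c-positive cells.

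For diet in monocyte-derived cells DESeq2 gave 2 calls, no filter 5, a fit of the compared groups alone 0, and protein-coding genes of at least 10 CPM alone 2. For its diet effect against MHCII-low macrophages these gave 4, 1, 0 and 6, and against CD11c-negative macrophages 4, 0, 0 and 6. For CD11c-positive against CD11c-negative macrophages DESeq2's size factors in edgeR gave 1, DESeq2 7, no filter 2, the compared groups alone 22 and abundant protein-coding genes 5. The split of all genes there moved from 317 higher and 484 lower to 437 and 443 with the size factors and to 1213 and 949 with DESeq2. CD11c-positive against MHCII-low macrophages gave 24 with the compared groups alone. Obese monocyte-derived against CD11c-positive cells gave 9 with abundant protein-coding genes, and the lean pair 28, with 4 for the compared groups alone. Scaling on abundant protein-coding genes moved the median of the 39 genes to 0.46, 0.59 and 0.09 for diet in MHCII-low, CD11c-negative and monocyte-derived cells.

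With the description number as replicate block, the diet effect in monocyte-derived cells differed in 6 genes from MHCII-low and in 10 from CD11c-negative macrophages, and the block gave 14 calls in CD11c-positive against CD11c-negative, 16 against MHCII-low and 27 in obese monocyte-derived against CD11c-positive cells. Those 6 and 10 compare with 3.64% and 5.11% of all tested genes called lower with the block. Of lean pairs with equal description numbers 5 of 7 correlated above 0.1, against 2 of 20 with unequal ones. Between lean CD11c-negative and monocyte-derived libraries equal numbers gave 0.0885 to 0.342 and unequal ones at most 0.0638, and the block gave 25 calls there. The title number as block gave 28 and 32 calls for diet in the macrophages. It gave 0 in CD11c-positive against CD11c-negative macrophages and 3 against MHCII-low ones. Single named genes kept sign and side of the threshold in 383 fits, lost the call in 53, gained it in 18 and changed sign in 5, all in monocyte-derived cells: Sdha to -0.0060 on abundant protein-coding genes, Uqcrfs1 to 0.0298 without obese replicate 2 (-0.43 to 0.0298 over single libraries left out), and Atp5e to 0.0391 and 0.16 without obese replicates 1 and 2 (-0.16 to 0.16) and to 0.0412 without the 4 libraries numbered 2.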
